A study of Mus musculus with 16 samples.

Results

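The beta chains of T cell receptors (TCR, gene TRB) whose complementarity-determining region 3 (CDR3) had 12 or fewer residues were examined in T cells from mouse liver tumours. In each library the productive beta chain with the most unique molecular identifiers (UMIs, tags that count captured molecules) stood for its cell, and a chain was a distinct combination of V segment, J segment and CDR3 bases. Short chains, as they are called below, numbered 615 of 3876 distinct chains (15.9%) and were carried by 1237 of 5760 cells (21.5%). Hepa1-6 hepatoma cells had been injected into the liver of C57BL/6 mice, and tumour-infiltrating cells were collected at day 5 or day 14. Control libraries (CON) had the genotype CD4creMatr3WT/WT and KO libraries CD4creMatr3fl/fl, so both carried Cre under Cd4 control. Matr3 is the gene of matrin 3, a protein of the nuclear matrix. Cd4-Cre acts in the thymus before CD4 and CD8 T cells part, so the deletion is not limited to CD4 cells, and receptor tables do not tell these cells apart. There were 2 libraries in each of the 4 groups. The labels do not say whether these came from separate mice, so p-values measure the spread between libraries, which may be technical. In the tests of V, D and J segments, part of that spread is estimated over all segments together. The deletion itself could not be checked in receptor tables.

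A beta chain is made in the thymus by joining 1 V, 1 D and 1 J segment. Bases are trimmed from the segment ends and others are added without a template, so the joint differs from cell to cell in length and sequence. The CDR3 runs from a conserved cysteine near the end of V to a phenylalanine in J, and it is the loop of the beta chain that usually lies over the peptide held by an MHC molecule. Invariant natural killer T (iNKT) cells pair a fixed alpha chain with a limited set of beta V segments and see lipids held by CD1d. They are abundant in mouse liver.

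The short loops found in the most cells, and the shortest one, are shown first, as CDR3 bases from the deposited contig tables. In all lines but the last, lower case marks bases that matched the V end or the J end learnt from the longer chains of the same segments. Capitals mark bases that matched neither. The last line was not marked, so its lower case carries no such meaning. Each line reads 5′ to 3′ on the coding strand. The first 6 lines all encode the loop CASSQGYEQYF, from TRBV5 joined to TRBJ2-7, and show how many base sequences gave 1 loop. The next 3 are loops of TRBV12-1 joined to TRBJ2-5, the next is the largest short clone, and the last is the shortest CDR3 seen.
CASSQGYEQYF in 103 cells: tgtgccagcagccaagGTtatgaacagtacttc
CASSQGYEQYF in 15 cells: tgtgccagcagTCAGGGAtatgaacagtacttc
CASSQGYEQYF in 9 cells: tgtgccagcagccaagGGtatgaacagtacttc
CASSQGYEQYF in 6 cells: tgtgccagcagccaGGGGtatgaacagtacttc
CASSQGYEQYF in 5 cells: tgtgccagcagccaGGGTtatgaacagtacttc
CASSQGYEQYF in 3 cells: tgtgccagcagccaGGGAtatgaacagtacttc
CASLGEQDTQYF in 51 cells: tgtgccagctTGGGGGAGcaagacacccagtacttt
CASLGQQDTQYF in 42 cells: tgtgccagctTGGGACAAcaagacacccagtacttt
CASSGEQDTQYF in 33 cells: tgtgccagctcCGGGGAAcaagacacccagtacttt
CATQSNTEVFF in 101 cells: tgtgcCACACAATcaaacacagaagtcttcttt
CASSL in 1 cell: tgtgctagcagtttg
In RefSeq's GRCm38.p6 annotation, the build named in the submitters' notes, these segments lie on chromosome 6. Trbv5 is at chr6:41062359-41062803, Trbv12-1 at chr6:41113567-41114067 and Trbv17 at chr6:41163092-41163556. Trbj1-1 is at chr6:41533864-41533911, Trbj2-5 at chr6:41543453-41543501 and Trbj2-7 at chr6:41543810-41543856. The CDR3 is coding sequence that exists only after joining, so it has no position of its own in the germline genome.

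Libraries held 301 to 652 distinct chains, of which 59 to 103 were short, in 462 to 1357 cells with 5427 to 21935 beta UMIs. Short cells had a median of 9 to 15 beta UMIs and longer ones 8 to 13. An alpha chain was read in 85.6% of short and 82.4% of longer cells, and 4.2% against 2.68% of the barcodes carried extra chains and could be doublets. Of all barcodes, 21 occurred in more than 1 library, and 0 of them carried the same beta chain in both.

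Most short loops sat at the edge of the limit. Chains of 12 residues numbered 435, of 11 residues 148, of 10 residues 25, of 9 residues 3, of 8 residues 3 and of 5 residues 1. Just outside the limit lay 721 chains of 13 residues, and the commonest length was 14, with 1229. The 11-residue loops made up 3.82% of chains and 7.86% of cells, a mean of 3.06 cells per chain, and the 12-residue loops 1.72 cells per chain, against 1.2 for 13 residues and 1.60 for 14. All but 2 short chains ended in phenylalanine. These 2 were CASSL and CASSFWGV, each in 1 cell, and the shortest loop with the usual ending had 8 residues.

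**Figure D1:**
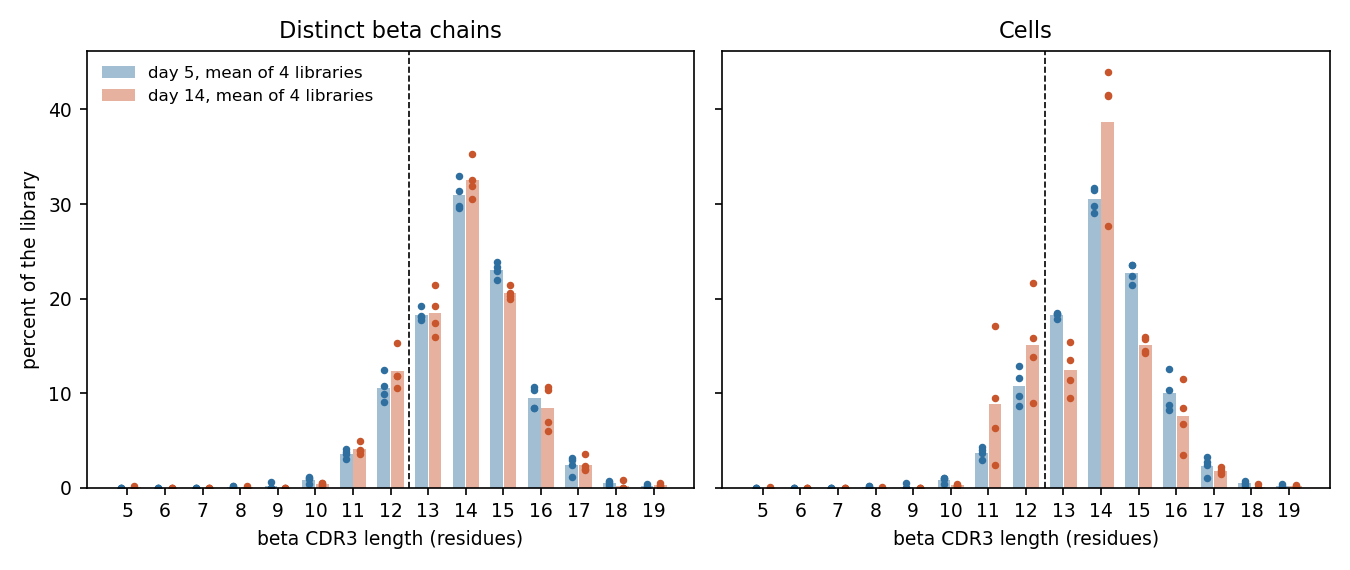
Percent of each library's distinct beta chains (left) and cells (right) at each CDR3 length in residues. Bars are means of 4 libraries a day, points are libraries, and the dashed line marks the limit of 12 residues. The days lie close together on the left, while on the right 1 of the 4 day 14 libraries lies far above the others at 11 residues.

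The share of distinct chains that were short was much alike in all groups. It was 13.3% and 15.8% in the day 5 CON libraries, 17.2% and 14.8% in day 5 KO, 16% and 17.3% in day 14 CON, and 19.6% and 14.8% in day 14 KO. The lowest, 75 of 565 chains, had a 95% Wilson interval of 10.7% to 16.3%, and the highest, 59 of 301, one of 15.5% to 24.5%. Intervals cover counting error only. The day 14 mean was 16.9% ± 2.04 and the day 5 mean 15.3% ± 1.66 (SD over 4 libraries each), a difference of 1.67 points (two-sided exact permutation within genotype, p = 0.222, adjusted p = 0.444 over 4 share comparisons). The KO mean exceeded the CON mean by 1.01 points (exact permutation within day, p = 0.444, adjusted p = 0.5). Libraries of both days and both genotypes overlapped. With 36 relabelings the smallest p these tests can give is 0.0556, so none can reach 0.05.

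Counted by cells, the share moved apart at day 14. Short cells made up 12.8% and 16.2% of the day 5 CON libraries and 17.8% and 15.4% of day 5 KO. At day 14 they made up 31.2% and 25.6% in CON and 24.2% and 15.9% in KO. Of the day 14 libraries 3 were above every day 5 library, and the day 14 KO library of replicate 2 lay among them. The day 14 mean was 24.2% ± 6.32 and the day 5 mean 15.5% ± 2.10 (SD over 4 libraries each), 8.66 points apart (exact permutation, p = 0.111, adjusted p = 0.444). KO minus CON was 2.11 points at day 5 and -8.35 points at day 14. That change in the genotype difference was -10.5 points (exact permutation p = 0.111, 36 relabelings), and KO minus CON over both days was -3.12 points (exact permutation p = 0.5, adjusted p = 0.5). Both CON libraries exceeded both KO libraries at day 14, with 2 libraries a group.

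**Figure D2:**
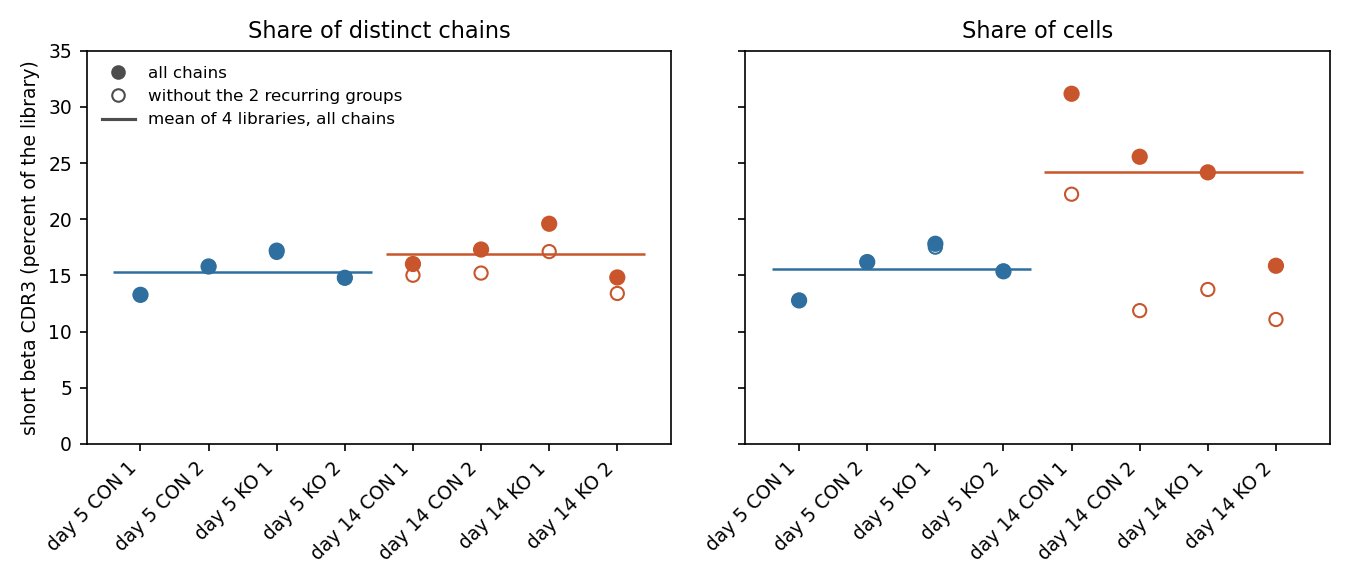
Short chains as percent of each library's distinct chains (left) and cells (right). Filled points are all chains, open points leave out the TRBV5-TRBJ2-7 and TRBV12-1-TRBJ2-5 groups, and lines are means of 4 libraries. By cells, 3 of 4 day 14 libraries exceed every day 5 library, and without the groups only the day 14 CON library of replicate 1 still does.

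Short chains were found in more than 1 cell more often than longer chains of the same library. At day 14, 25.3% and 30.2% of short chains in CON and 28.8% and 28.6% in KO were in 2 or more cells, against 18.1%, 24.6%, 15.3% and 16.6% of longer chains in the same order. At day 5 the short values were 0%, 7.77%, 5.56% and 2.99%, and the longer ones 1.43%, 5.46%, 3.23% and 1.04%. The short value was higher in 4 of 4 libraries at day 14 and 3 of 4 at day 5. Over 8 libraries the means were 16.1% and 10.7%, a difference of 5.43 points (two-sided exact sign-flip permutation, p = 0.0156, adjusted p = 0.0547 over 7 paired measures), which does not pass 0.05 after adjustment. The smallest p of this design is 0.00781.

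Mean clone size also separated the day 14 libraries. A short chain was found in a mean of 4.45 and 3.24 cells in the day 14 CON libraries and 2.24 and 1.83 in day 14 KO, against 1.88, 1.97, 1.71 and 1.69 for longer chains. At day 5 both kinds lay between 1 and 1.16 cells. The 8-library means were 2.01 and 1.43 cells, with short higher in 7 of 8 (exact sign-flip permutation, p = 0.0234, adjusted p = 0.0547). The difference of 0.574 cells was 0.287 without the day 14 CON library of replicate 1. Of the short chains 522 were seen in 1 cell. Another 11 were in 10 or more cells, all at day 14, and these held 430 cells. That is 1.79% of short chains, against 0.736% of longer chains (24 chains, 22 of them at day 14). The largest short clone at day 5 had 8 cells.

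**Figure D3:**
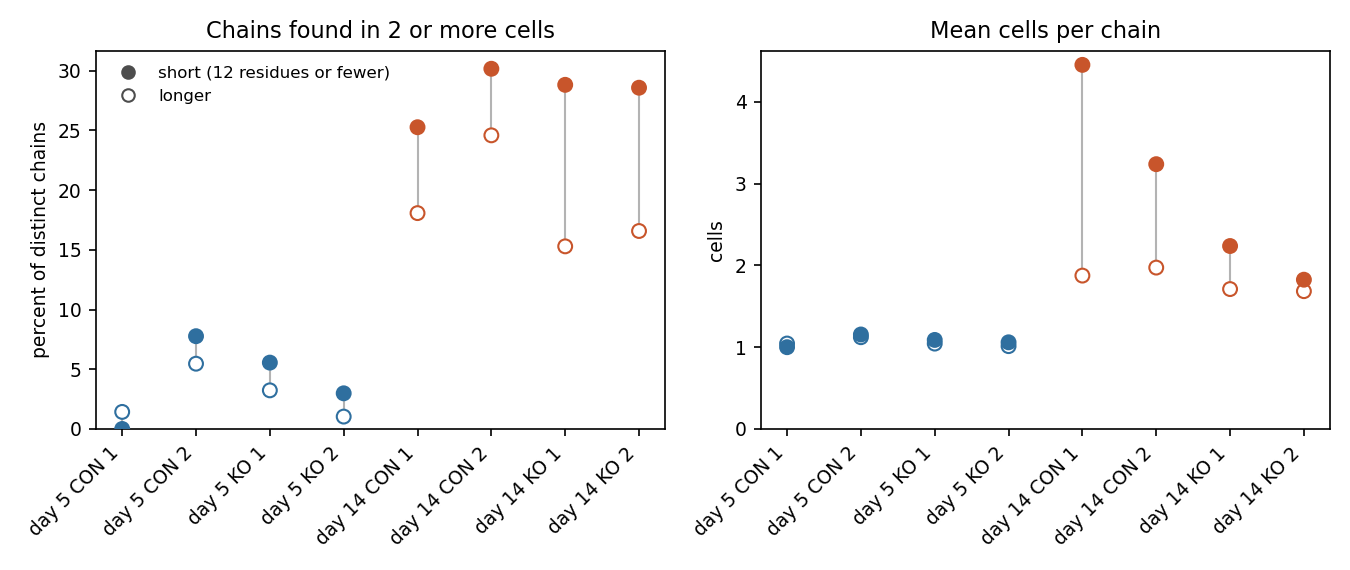
Percent of distinct chains found in 2 or more cells (left) and mean cells per chain (right) in each library. Filled points are short chains and open points longer chains. The filled point is above the open one in 7 of 8 libraries in both panels, with the wider gaps at day 14.

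A pair of recurring groups held much of the short cell count at day 14. They were picked after their values were seen, for their number of cells, so they are described without a test. The first was TRBV5 joined to TRBJ2-7 with 11 residues. It comprised 19 chains in 201 cells. Its cells numbered 114 and 55 in the day 14 CON libraries and 3 and 27 in day 14 KO, and 0, 0, 2 and 0 in the day 5 CON and KO libraries. All 4 day 14 libraries had it, but the KO library of replicate 1 held only single cells. The group covered 9 amino acid loops and 14 base sequences. All 9 had glycine at residue 6, and 6 of 9 had tyrosine at residue 7. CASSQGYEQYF alone was in all 4 day 14 libraries, in 141 cells. Its 6 base sequences, printed above, had 2 to 7 bases that matched neither segment end.

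The alpha chains of this group were nearly as narrow as its beta chains. Of 185 cells with an alpha chain, 175 used TRAV7-6 joined to TRAJ22, in 4 libraries. Their alpha loops were 7, all of 12 residues and all ending SGSWQLIF. The commonest were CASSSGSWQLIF (88 cells), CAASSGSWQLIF (32), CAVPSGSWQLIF (32) and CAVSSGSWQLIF (15). Counted once per pair of chains and library, 18 of 25 pairs had this alpha join, so more than 1 clone carried it. Over all cells with an alpha chain, TRAV7-6 with TRAJ22 occurred in 2 of 1852 at day 5 and 185 of 2935 at day 14. Only 12 of these 187 cells lay outside the group. The chain in 103 cells was found in 3 libraries (96, 1 and 6 cells).

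The second group was TRBV12-1 joined to TRBJ2-5 with 12 residues. It comprised 14 chains, all in 2 or more cells, and 186 cells. These numbered 42 and 69 in day 14 CON and 63 and 12 in day 14 KO. At day 5 there was none in 2334 cells, which allows a share of up to 0.129% if cells are taken as independent. The 11 loops all had glycine at residue 5, and 9 of 11 had leucine before it. In the 3 lines of this group printed above, the capitals hold a run of G after their first base. The group had 13 base sequences, and in some of the others the run starts later. Of 181 cells with an alpha chain, 73 used TRAV10 with TRAJ27, 62 TRAV5-1 with TRAJ27 and 32 TRAV10 with TRAJ34. TRAV10 with TRAJ27 came as 6 amino acid loops in 4 libraries, and TRAV5-1 with TRAJ27 as 6 loops in 3. All 32 TRAV10 with TRAJ34 cells had the loop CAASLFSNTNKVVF in 1 library. TRAV10 with TRAJ27 was seen in 1 of 1852 cells at day 5 and 74 of 2935 at day 14, and 73 of these 75 cells were in this group.

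Together the groups made up 11.5% and 15.5% of all cells in day 14 CON and 12.1% and 5.38% in day 14 KO. That was 36.9%, 60.8%, 50% and 33.9% of the short cells of those libraries. Of the 11 short chains in 10 or more cells, 8 belonged to them, with 293 cells. The groups were picked for their cells, nearly all at day 14, so leaving them out, an alternative chosen after seeing the data, lowers the day 14 share and the short clone sizes by construction. The values without them are therefore given with no test. The day 14 minus day 5 difference was then -0.731 points by cells and -0.0408 points by chains. Short minus longer was 1.65 points for chains in 2 or more cells and 0.00224 cells in mean clone size, with nothing left out of the longer chains. That mean size hides opposite directions at day 14. Short and longer chains had 3.03 and 1.88 cells in CON replicate 1, but 1.48 and 1.97 in CON replicate 2. In KO they had 1.32 and 1.71, and 1.36 and 1.69. TRBJ2-7 was at 0.94 and TRBJ1-1 at 1.13 on the log2 scale, and the share with a D segment named at -18.3 points. The day 14 CON library of replicate 1 kept 22.2% short cells, and the others 11.9%, 13.8% and 11.1%.

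**Figure D4:**
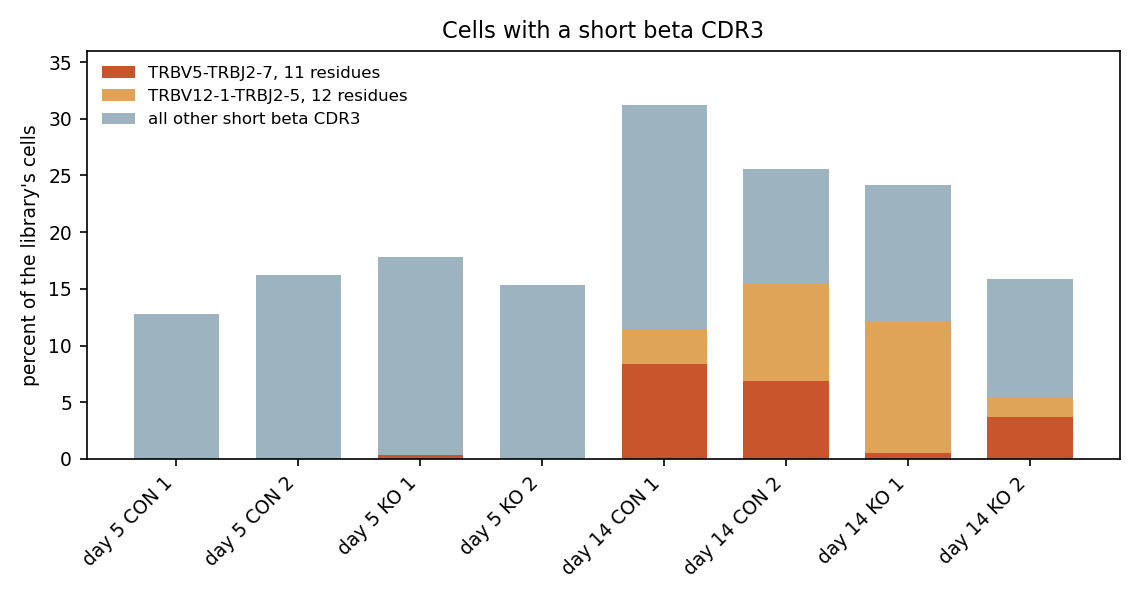
Cells with a short beta CDR3 as percent of each library's cells, split into the 2 recurring groups and all other short loops. The groups add 5.38% to 15.5% of cells in the day 14 libraries and at most 0.364% in a day 5 library.

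The largest short clone stood outside both groups. TRBV17 joined to TRBJ1-1 as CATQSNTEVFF was in 101 cells, 7.44% of the day 14 CON library of replicate 1, where it was the most frequent beta chain of any length, and in no other library. Its leading alpha chain was TRAV6-4 with TRAJ39 (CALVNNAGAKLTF) in 67 cells and TRAV16-DV11 with TRAJ40 in 30, and 75 of the 101 cells carried 2 alpha chains. The leading short chain of day 14 CON replicate 2 was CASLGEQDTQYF (45 cells, 5.64%), and that of day 14 KO replicate 1 was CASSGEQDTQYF (33 cells, 6.04%). In day 14 KO replicate 2 it was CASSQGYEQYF (15 cells, 2.07%). At day 5 the leaders were small. CON replicate 2 had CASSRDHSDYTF, of TRBV17 and TRBJ1-2, in 8 cells. KO replicate 1 had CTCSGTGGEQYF, of TRBV1 and TRBJ2-7, and KO replicate 2 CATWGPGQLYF, of TRBV12-1 and TRBJ2-2, in 4 cells each. In CON replicate 1 all 75 short chains were single cells.

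J segments separated short from longer chains more than V segments did. The groups were split by CDR3 length, and J segments bring different numbers of bases to it. The split itself thus favours the shorter J segments, and the tests do not set that apart. With enough chains to test were 21 V segments, 12 J segments, TRBD1, TRBD2 and chains with no D named, which is counted as a segment here and below. Of these 36, 11 (30.6%) differed in edgeR's quasi-likelihood test on numbers of distinct chains, 3 higher (8.33%) and 8 lower (22.2%) in short chains. The 3 higher were TRBJ2-7, TRBJ1-1 and no D named, and the last mirrors the calls for TRBD1 and TRBD2. With TMM scaling 6 were higher and 8 lower. TRBJ2-7, the last functional J segment of the locus, made up 30.7%, 37.9%, 36.7% and 34.3% of short chains in the day 5 libraries and 36.8%, 46%, 47.5% and 31.7% in the day 14 ones. In longer chains it made up 15.3% to 22.4%, and the ranges did not overlap. Its mean share was 37.7% ± 6.13 in short and 18.6% ± 2.49 in longer chains (SD, n = 8), 0.99 ± 0.14 on the log2 scale (SE from the edgeR fit; edgeR adjusted p = 1.30e-09). TRBJ1-1, the first J segment, made up 11.9% to 24.4% of short and 4.85% to 10.6% of longer chains, again without overlap, at 1.05 ± 0.23 on the log2 scale (edgeR adjusted p = 5.84e-05). Its call was lost when cells replaced chains (0.44) and with a limit of 11 residues (0.75).

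Lower in short chains were TRBJ1-3 (log2 fold change -1.63 ± 0.42), TRBJ2-2 (-1.56 ± 0.43), TRBJ2-3 (-1.21 ± 0.33), TRBJ2-1 (-1.13 ± 0.30) and TRBJ2-4 (-1.0 ± 0.32). With a limit of 11 residues, of these only TRBJ2-3 passed. The others were then at -1.72 for TRBJ1-3, -0.77 for TRBJ2-2, -0.54 for TRBJ2-1 and -1.01 for TRBJ2-4. Of the 6 Jbeta1 segments tested 1 was higher and 1 lower, and of the 6 Jbeta2 segments 1 was higher and 4 lower. The median over all 12 J segments was -0.66, and over all 36 segments -0.12. Put the other way, 27.2% of TRBJ2-7 and 28.1% of TRBJ1-1 chains were short, against 5.71% of TRBJ1-3 and 6.04% of TRBJ2-2 chains. The germline J segments run from 47 to 53 bases in RefSeq, with TRBJ2-7 at 47 and TRBJ1-1 at 48. Across the 12 segments, germline length and the percent of chains that were short had r = -0.648 and rho = -0.552, a description over segments that share the same libraries.

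**Figure D5:**
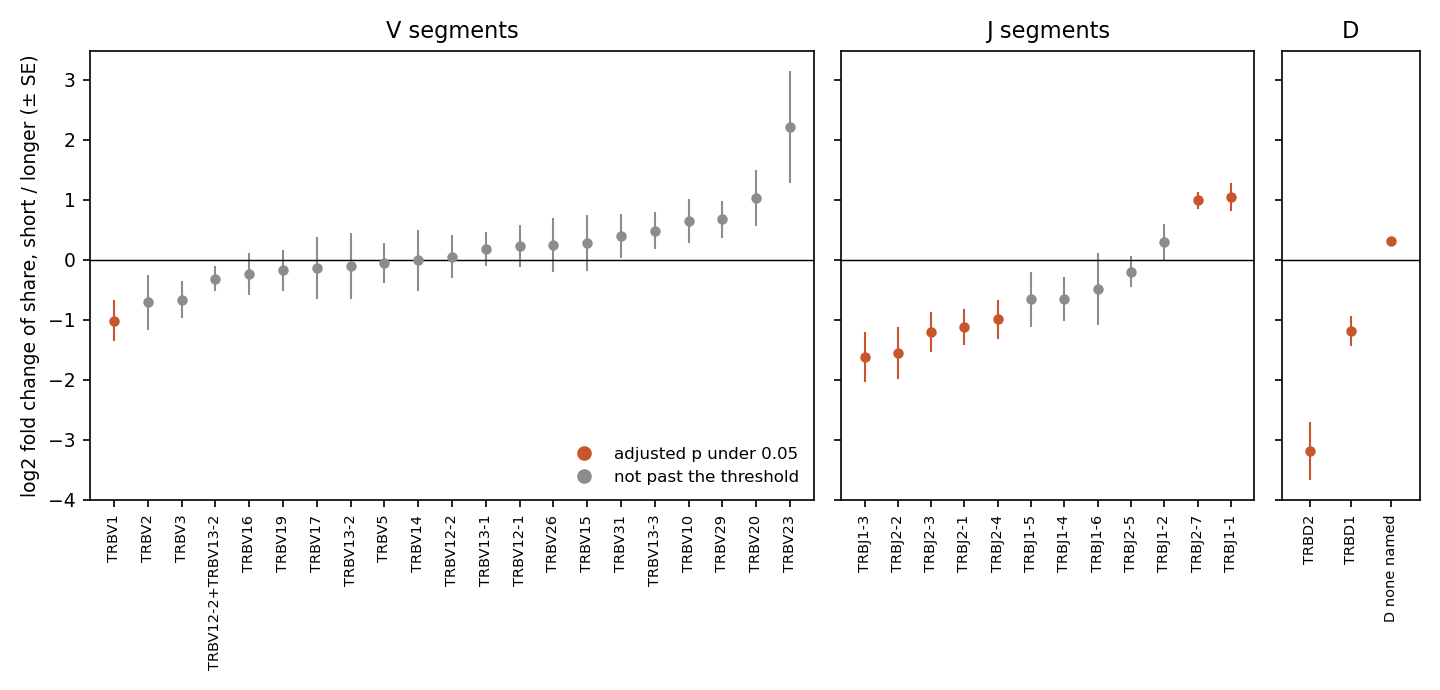
Log2 fold change of each segment's share of distinct chains in short against longer chains, with its standard error, from 8 libraries. Coloured points passed an edgeR adjusted p of 0.05. TRBJ2-7 and TRBJ1-1 stand near 1, 5 J segments lie at about -1.0 or lower, and the V segments scatter about 0 apart from TRBV1.

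Among 21 V segments tested, 0 were higher and 1 was lower. TRBV1, the most upstream V segment, made up 3.77% ± 1.70 of short and 8.24% ± 1.91 of longer chains (SD, n = 8), -1.02 ± 0.34 on the log2 scale (SE; edgeR adjusted p = 0.0113). That call was lost with day 14 CON replicate 2 left out (-0.87) or day 14 KO replicate 2 left out (-0.93). TRBV23 had the largest value upwards, 2.21 ± 0.93, and missed the threshold (edgeR adjusted p = 0.0558). Of its 26 chains 13 were short. None of the 4 Vbeta8 names (TRBV13-1, TRBV13-2, TRBV13-3 and the joint deposited name TRBV12-2+TRBV13-2), the family most used by iNKT cells, passed, and their median was 0.04.

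A D segment was seldom named in short chains. The authors' tables named one in 5.33%, 13.6%, 16.7% and 2.99% of short chains at day 5 and in 9.47%, 3.17%, 3.39% and 7.94% at day 14. In longer chains they named one in 20.7% to 29.8%, and short was lower in 8 of 8 libraries. The means were 7.82% and 26.5%, 18.7 points apart (exact sign-flip permutation, p = 0.00781, adjusted p = 0.0547). TRBD2 and TRBD1 were both lower, with log2 fold changes of -3.19 ± 0.48 (edgeR adjusted p = 2.40e-09) and -1.18 ± 0.25 (edgeR adjusted p = 4.26e-05). TRBD2 was named in only 6 short chains and TRBD1 in 47, so the size of the TRBD2 change rests on few chains. The difference between the D segments was not tested. The share with none named was higher by 0.31 ± 0.05 on the log2 scale (edgeR adjusted p = 5.84e-05). Pooled over libraries, a D was named in 7.43% of chains at 11 residues, 8.97% at 12, 17.1% at 13 and 24.2% at 14. Short chains were picked by length, so these tests do not set D use apart from length.

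Short joints held fewer bases that matched the V end, the J end or neither. In the 602 short chains whose segments could be matched, 13.1 bases matched the V end, 15.6 the J end and 6.24 neither, against 14.0, 18.6 and 10.5 in 3244 longer chains. The library means of unmatched bases were 6.28 ± 0.379 in short and 10.5 ± 0.198 in longer chains (SD, n = 8). The limit on length fixes that a short joint holds fewer bases, so these are descriptions. The gap was 4.28 bases in the unmatched middle, 2.95 at the J end and 0.979 at the V end. At most 5 unmatched bases were present in 41.4% of short and 7.89% of longer chains. None was present in 2.99% of short chains and 0% of longer ones. At 10 residues 24% of the 25 chains had none. The days differed little, with 6.13 unmatched bases at day 5 and 6.38 at day 14.

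With the 4 residues at either end left aside, the residues in the middle of the loop also differed. Aspartate made up 12% of these positions in short and 9.76% in longer chains, glutamine 7.78% and 6.29%, and tyrosine 6.88% and 4.43%, each higher in 8 of 8 libraries. Alanine made up 6.03% and 8.74% and tryptophan 1.70% and 2.56%, each lower in 8 of 8. Glycine made up 19.4% and 22.7%, lower in 6 of 8. No test was made over residues. The same 4 residues are left aside at any length, so a shorter loop keeps fewer middle positions. J use also differed between the groups. The residue shares and the hydropathy below thus do not set the residues apart from length or J use. The mean Kyte-Doolittle hydropathy of these positions was -1.27 ± 0.183 in short and -1.10 ± 0.0701 in longer chains (SD, n = 8), 0.171 units lower, in 6 of 8 libraries (exact sign-flip permutation, p = 0.0469, adjusted p = 0.0820). Beta UMIs per cell differed by 0.02 on the log2 scale (exact sign-flip permutation, p = 0.797, adjusted p = 0.797). The partner alpha CDR3 differed by -0.0372 residues outside iNKT-type cells (exact sign-flip permutation, p = 0.453, adjusted p = 0.529).

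Between days, the V segments of short chains shifted. Of 24 segments tested, 3 (12.5%) passed in edgeR, 2 higher (8.33%) and 1 lower (4.17%) at day 14. TRBV12-1 made up 2.67%, 1.94%, 0% and 2.99% of short chains in the day 5 libraries (CON, then KO) and 3.16%, 7.94%, 13.6% and 9.52% in the day 14 ones, with no overlap. The change was 2.06 ± 0.56 on the log2 scale (SE; edgeR adjusted p = 0.00595). TRBV10 made up 2.67%, 1.94%, 3.33% and 0% at day 5 and 9.47%, 6.35%, 10.2% and 6.35% at day 14, a change of 1.89 ± 0.56 on the log2 scale (edgeR adjusted p = 0.00732). The joint name TRBV12-2+TRBV13-2 made up 20%, 10.7%, 27.8% and 26.9% at day 5 and 6.32%, 4.76%, 5.08% and 11.1% at day 14. Here the lowest day 5 library lay just under the highest day 14 one. Its log2 change was -1.55 ± 0.43 (edgeR adjusted p = 0.00595). It was -0.93 and lost its call without iNKT-type chains. In DESeq2 neither TRBV12-1 nor TRBV10 passed (adjusted p = 0.0834 for each), and TRBV10 did not pass by cells (1.46, edgeR adjusted p = 0.0876). The calls for TRBV12-1 and TRBV10 were also lost with day 14 KO replicate 1 left out (1.8 and 1.75), and that for TRBV12-1 with day 5 KO replicate 1 left out (1.45). Of the 28 TRBV12-1 short chains 14 belonged to the second recurring group, and without both groups too few were left to test it, while TRBV10 passed at 2.06. Next in order were TRBJ1-2 (-1.33, edgeR adjusted p = 0.0870) and TRBV5 (1.27, edgeR adjusted p = 0.0931), which did not pass.

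Joins of 12 residues differed in their days, out of 335 short chains at day 5 and 280 at day 14. TRBV10 joined to TRBJ2-3 comprised 7 chains in 17 cells, all at day 14 and in 4 of 4 libraries. TRBV23 joined to TRBJ2-7 with 12 residues comprised 10 chains, of which 9 were at day 14, again in 4 libraries, and one loop, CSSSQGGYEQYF, was in 3 of them in 3 base sequences. TRBV29 joined to TRBJ2-7 with 12 residues comprised 14 chains at day 14 and 3 at day 5. Others went the opposite way. The joint name TRBV12-2+TRBV13-2 with TRBJ1-2 comprised 12 chains at day 5 and 3 at day 14, and with TRBJ2-7 it comprised 11 and 1. TRBV13-3 with TRBJ2-7 comprised 11 and 3. Of the chains in these last joins, 8 of 15, 4 of 12 and 1 of 14 were iNKT-type, in that order. Among the joins more frequent at day 14, 1 of the 17 TRBV29 chains was iNKT-type and 0 of the others. All these joins too were chosen after their values were seen.

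Whether these day differences were larger in short than in longer chains was tested as an interaction, and 0 of 36 segments (0%) passed in edgeR. DESeq2 also called 0, and 6 had an unadjusted p under 0.05. The smallest adjusted p was 0.0560, shared by TRBJ2-2 (-3.32 ± 1.10), TRBV12-1 (1.96 ± 0.66) and TRBV29 (1.5 ± 0.52), followed by TRBV10 (1.70 ± 0.66, edgeR adjusted p = 0.0789). The TRBJ2-2 value rests on 11 short chains, of which 1 was at day 14, in KO replicate 1. Without the recurring groups TRBV12-1 was at 0.70. In longer chains TRBV12-1 made up 3.76% at day 5 and 4.14% at day 14, and TRBV10 2.77% and 3.31%. The joint name went from 22.0% to 12.2% in longer chains too. Counting cells in place of chains called 5 segments, and 3 passed without the day 14 CON library of replicate 1.

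Between genotypes, 0 of 24 segments (0%) passed in short chains in edgeR with day as a covariate, and 0 in DESeq2. Only the joint name TRBV12-2+TRBV13-2 had an unadjusted p under 0.05, at 17.7% ± 11.4 in KO and 10.4% ± 6.85 in CON (SD, n = 4 each). That is a value of 0.81 ± 0.39 on the log2 scale (edgeR adjusted p = 0.690). The following 3 were TRBV12-2 (0.90 ± 0.53), TRBJ2-3 (-0.91 ± 0.55) and TRBV19 (-0.86 ± 0.54). With 59 to 103 short chains a library, a segment at a few percent rests on a handful of chains.

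Cells with TRAV11 joined to TRAJ18, called iNKT-type from the alpha chain alone, carried 77 of the short chains, out of 634 iNKT-type chains. The short share of iNKT-type chains was 9.49% and 6.54% in day 5 CON, 25.4% and 12.1% in day 5 KO, 10.5% and 9.09% in day 14 CON, and 5.56% and 7.14% in day 14 KO. It was lower than among other chains in 7 of 8 libraries. The means were 10.7% ± 6.31 and 16.7% ± 2.11 (SD, n = 8), a difference of -5.98 points (exact sign-flip permutation, p = 0.0703, adjusted p = 0.0984). The exception was the day 5 KO library of replicate 1, with 31 short of 122 iNKT-type chains (95% Wilson interval 18.5% to 33.8%). At day 14 a library held only 18 to 38 iNKT-type chains, of which 1 to 4 were short. Of the 77, 50 had 12 residues and 21 had 11.

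By V segment, the short iNKT-type chains resembled the longer ones, with the joint TRBV12-2+TRBV13-2 name in 50.6% and 50.8%, TRBV13-1 in 18.2% and 13.8%, and TRBV29 in 10.4% and 11.7%. TRBV13-3 was in 11.7% and 4.13%, which is 9 and 23 chains. By J segment they used TRBJ2-7 in 26.0% against 18.3%, TRBJ1-1 in 24.7% against 9.69%, and TRBJ1-2 in 23.4% against 9.69%. No test was made on these pooled counts. Outside iNKT-type cells, the short share of chains averaged 15.9% ± 1.91 over the day 5 and 17.5% ± 2.23 over the day 14 libraries (SD, n = 4 each). No MAIT-type receptor (TRAV1 with TRAJ33, found on mucosal-associated invariant T cells) was seen in 1059 short cells with an alpha chain. That allows a share of up to 0.283% if cells are taken as independent, though cells of 1 clone are not.

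Pooled over all pairs of libraries, short loops recurred more often than longer ones. As amino acid chains with the same V and J, 13 of 589 short chains (2.21%) and 32 of 3211 longer chains (0.997%) were in 2 or more libraries. As base sequences it was 7 of 606 (1.16%) and 14 of 3245 (0.431%). Per 1000000 possible pairs of chains from 2 libraries, 138 short and 10.0 longer pairs matched. Only 7 of the 28 pairs of libraries shared a short chain, and the short rate was higher in those 7 alone. A match needs equal length, and 435 of 615 short chains had 12 residues, against 1229 of 3261 longer chains with 14. The rates were not corrected for this. Between day 14 libraries the values were 737 and 41.0, with short higher in 6 of 6 pairs of libraries. Between day 5 libraries they were 48.0 and 3.89, from 2 and 5 matches, with short higher in 1 of 6 pairs of libraries. Between a day 5 and a day 14 library 0 of 90785 short pairs matched, against 4.64 per 1000000 for longer chains. Taking pairs as independent, which they are not, that would allow up to 33.0 per 1000000. Pairs of libraries share libraries, so no test was made.

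Of the 13 shared short loops, 11 were shared only among day 14 libraries and 2 only among day 5 libraries, and 5 belonged to the recurring groups. After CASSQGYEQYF, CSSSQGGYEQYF and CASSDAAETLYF (TRBV13-1 with TRBJ2-3) were each in 3 day 14 libraries, in 6 and 3 cells. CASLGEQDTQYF, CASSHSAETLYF and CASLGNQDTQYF were each in 2. More than 1 base sequence encoded 12 of the 589 short loops (2.04%) and 28 of the longer ones (0.872%). With the alpha chain included and iNKT-type cells left out, 6 of 433 short pairs of amino acid chains (1.39%) were in 2 or more libraries, all at day 14, against 8 of 2106 longer pairs (0.380%). Of the 6, 3 were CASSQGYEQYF with TRAV7-6 and TRAJ22. Counted as bases of both chains, 1 of 440 short and 2 of 2117 longer pairs were shared.

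Among alpha partners outside iNKT-type cells, counted once per pair of chains, TRAV6-6 was the most used with short chains, at 7.03% against 5.28% with longer ones. TRAV7-6 followed with 6.12% against 1.79%, and TRAV3-3 with 5.44% against 4.57%. Among J segments TRAJ22 led with 11.3% against 6.98%, then TRAJ27 with 7.03% against 6.74% and TRAJ31 with 6.80% against 4.62%. The recurring groups weigh on these counts. The first group's 18 pairs of TRAV7-6 with TRAJ22 are among the 27 TRAV7-6 and 50 TRAJ22 pairs of short chains. The 31 TRAJ27 pairs include 7 with TRAV10 and 6 with TRAV5-1 from the second group. Shares without the groups were not computed.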

How the data were processed

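TCR contigs of 8 libraries were analysed, and the 8 RNA libraries were not used here. The submitters' processing notes name the build GRCm38 (mm10) and, with no role, Seurat 4.0.0, Cell Ranger 3.1.0, CASAVA 1.8 and R 4.1.2. The deposited UMI counts per contig are whole numbers without normalization, per the file headers. Kept were contigs called cell, high-confidence and productive. The beta and the alpha chain with the most UMIs stood for a barcode, and duplicated TRAV copies were merged. A chain was iNKT-type where most of its cells with an alpha chain were. Possible doublets (2 or more beta or 3 or more alpha chains) were kept.

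Per-library values were compared by two-sided exact permutation of day within genotype or genotype within day (36 relabelings), and short with longer chains by sign flips of the 8 within-library differences (256), with Benjamini-Hochberg adjustment over 4 shares and 7 paired measures. Segments were tested by the quasi-likelihood F test of edgeR 4.0.16 (R 4.3.3) on numbers of distinct chains, offset by the number of chains in the column, for segments with 20 or more chains, at an adjusted p of 0.05. The SE of a segment's log2 fold change was its size divided by the square root of F. The script was tested on simulated data. DESeq2 1.42.0 was an alternative, as were TMM factors, no filter, cells for chains, a limit of 11 residues, chains of 2 or more UMIs, no doublets, no iNKT-type cells, longer chains of up to 15 residues, a replicate block and leaving out each library. V and J ends came from longer chains, extended while the leading base was in at least 0.5 of at least 20 chains. A J end was no longer than the RefSeq segment less the 28 framework bases after the CDR3. Named were segments past the threshold or the 4 with the smallest p, the leading short chain of each library, the most shared and the shortest loops and the 3 most used TRAV and TRAJ partners. RefSeq had 35 of the 36 segment names seen, a count that includes TRBV30, which was not tested, and leaves out chains with no D named. Members, lists and tests were chosen with earlier results of these data known.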

Additional observations from a re-analysis of the deposited data

Results flagged for a closer look

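The short share of iNKT-type chains differed between KO and CON in opposite directions at the 2 days. It was picked by screening several per-library measures, by genotype and by day, for libraries fully separated in opposite directions. The separation is therefore how it was chosen, and no test backs it. At day 5 both KO libraries lay above both CON libraries, 10.7 points higher in the mean, and at day 14 both KO libraries lay below both CON libraries, with a mean difference of -3.46 points. Without day 5 KO replicate 1, at 25.4%, the day 5 difference was 4.06 points, and without day 5 KO replicate 2, at 12.1%, it was 17.4 points. The difference between the days was not tested. The day 14 values rest on 1 to 4 short chains a library.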

How the results depend on the processing

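Over 20 alternative settings the 15 main comparisons gave 213 values. Of these 183 kept their direction and their side of the threshold (or a count within 1.5 times), 11 newly passed, 8 counts moved further and 11 reversed. The 4 share comparisons, 56 of these values, could not reach 0.05, so the side they kept says nothing. With a limit of 11 residues, the day difference by chains was -0.170, KO minus CON by chains -0.207 and the hydropathy difference 0.00604, and 7 segments differed between short and longer chains. KO minus CON by chains was -0.216 without iNKT-type cells. Several paired measures passed after adjustment in some settings. Without possible doublets these were chains in 2 or more cells (4.86 points), cells per chain (0.553) and a D named (-18.4 points). With longer chains of 13 to 15 residues they were 5.37 points, 0.566 cells and -16.7 points, and without iNKT-type cells 5.51 points and -18.0 points. The difference in log2 UMIs was -0.0271 with longer chains of 13 to 15 residues. Without the recurring groups, chosen after seeing the data, the day difference was -0.0408 points by chains and -0.731 by cells, and the alpha length difference 0.0422. Short against longer then called 15 segments in place of 11. The day contrast called 1 segment in DESeq2 (the joint name TRBV12-2+TRBV13-2) and 8 by cells. The interaction called 5 by cells and 1 with a limit of 11 residues. The cause was not tested.

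Leaving out 1 library at a time, the day difference ran from 0.476 to 2.87 points by chains and 6.58 to 10.7 by cells, and KO minus CON from -0.189 (day 14 KO replicate 1 left out) to 2.20 by chains and -5.20 to -1.04 by cells. Chains in 2 or more cells ran from 4.27 to 6.41 points, cells per chain from 0.287 to 0.662 and D named from -20.2 to -17.6 points. All 3 passed without the day 5 CON library of replicate 1, at 6.41 points, 0.662 cells and -17.9 points. The UMI difference ran from -0.0200 (day 14 CON replicate 1 left out; -0.00248 with day 5 KO replicate 1 left out) to 0.0974, alpha length from -0.0616 to -0.00795, hydropathy from -0.217 to -0.136 and the iNKT-type difference from -8.36 to -4.70. Segments called ran from 10 to 14 for short against longer chains, 1 to 4 for day (1 with day 14 KO replicate 1 left out), 0 to 0 for genotype and 0 to 3 for the interaction (3 with day 14 CON replicate 1 left out and 1 with day 14 KO replicate 1 left out).

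The deviations of same-numbered libraries of different groups had 6 correlations, of -0.169 to 0.0491. Whether the numbers pair the samples in another way, such as by shared preparation, was not tested. With a replicate block the day contrast called 3 segments and the genotype contrast 0, the differences were 1.67 and 1.01 points by chains and 8.66 and -3.12 by cells, and no call changed. Each library's shares rest on 59 to 103 short chains, which sets their counting error.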
